A study of Homo sapiens with 8 samples.

Results

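bktRNA16 and bktRNA17 are 2 short RNAs that co-purified with 15.5K, the kink-turn binding protein SNU13, and that fold, in prediction, into a single hairpin. They are 2 of the 14 RNAs in the deposited reactivity file and hold 119 of its 1279 nucleotides (nt). They were chosen by a measured value, the mean reactivity of the predicted hairpin loop, in which they stood first and second among the 24 predicted loops of the file. That value, and everything else read from the same profiles, is therefore given as a description, with no test.

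The libraries came from HEK293T, a human embryonic kidney line, that stably overexpressed FLAG-15.5K and was kept under puromycin. An anti-FLAG pull-down brought the complexes onto beads, where their RNA was probed, in 4 libraries with NAI-N3 and in 4 with its solvent, DMSO, as the negative control. The deposited file gives 1 profile per RNA for the whole series, so no value of a single library, no NAI-N3 and DMSO levels apart and no spread between replicates could be given. The depth behind the scores was unknown. Errors below are standard deviations (SD) over nucleotides of 1 RNA, which are neighbours on 1 molecule and not replicates.

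SHAPE reagents such as NAI-N3 acylate the ribose of flexible nucleotides. A paired nucleotide in a firm helix reacts little, and a loop or bulge reacts more. A kink-turn is a sharp bend between helices, formed by a short bulge beside tandem G-A pairs. In box C/D RNAs the bend is built from box C (consensus RUGAUGA, where R is A or G) and box D (CUGA), and 15.5K is the protein that first recognises it. A base held by sheared pairs or by the protein can be unreactive without a Watson-Crick partner, and structure prediction from sequence alone sees neither.

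The whole sequences are shown because the results turn on where the boxes and the loop lie. Capitals mark box D near the 5' end and box C near the 3' end, so box D comes first in both. The bkt of the names stands for backward kink-turn. The line below each sequence gives its predicted minimum free energy structure, with brackets for pairs and dots for unpaired nucleotides. Coordinates are on hg38.

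bktRNA16, chr13:36871107-36871166, minus strand: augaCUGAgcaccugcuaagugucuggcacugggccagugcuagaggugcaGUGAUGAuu

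bktRNA16 structure: ((.(((..((((((.(((.(((.(((((.....)))))))))))))))))))).))....

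bktRNA17, chr16:67932332-67932390, minus strand: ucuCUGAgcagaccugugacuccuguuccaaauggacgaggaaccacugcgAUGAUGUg

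bktRNA17 structure: ..((...(((.....(((..((((..(((....)))..))))..))))))...))....

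bktRNA16, 60 nt long, lies on chromosome 13 inside the span of SMAD9, which encodes a receptor-regulated SMAD of bone morphogenetic protein signalling. RefSeq places SMAD9 on the same, minus strand (36844831 to 36920854), and the RNA begins 49688 nt downstream of the gene's start. Exon and intron boundaries were not used here. bktRNA17, 59 nt long, overlaps no RefSeq gene span on chromosome 16. The nearest span is that of CTRL, a chymotrypsin-like protease gene, 470 nt away, and the next is that of PSMB10, a proteasome subunit gene, 2116 nt away.

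Apart from their boxes the RNAs are not copies of each other. In a global alignment 36 of 64 columns were identical (56.2%), and the longest stretch they share is 7 nt, CUGAGCA, which is box D with the 3 nt behind it. Their composition is close, at 53.3% G and C in bktRNA16 and 52.5% in bktRNA17. The predicted energy differs more, at -23.9 kcal/mol for bktRNA16 and -14.3 for bktRNA17.

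The layout of the boxes around the hairpin is the same in both. With all box nucleotides held unpaired, the fold kept 17 pairs in bktRNA16 and 13 in bktRNA17, the same pairs as between the boxes in the unconstrained fold, and cost 1.5 and 0.9 kcal/mol. In this form the first pair of the hairpin directly follows box D, and its partner at nt 50 is followed by 1 nt and then box C at nt 52 to 58, in both RNAs. Between the helix and the G of box C position 3 there are thus 3 nt, nt 51 to 53. The placement is not particular to these RNAs: 9 of the other 12 RNAs had both boxes at these distances. From the loop to box C there are 18 nt in each, and from box D to the loop 20 nt in bktRNA16 and 22 nt in bktRNA17.

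The strongest signal of both RNAs lay in the terminal loop. In bktRNA16 the loop is ACUGG, nt 29 to 33, and its scores in order were 0.0421 at A, 0.0337 at C, 0.121 at U, 0.0634 at G and 0.0561 at the last G. The U in the middle stood highest, and each of the 5 scores exceeded every stem nucleotide of the RNA, the highest of which was 0.0261. The loop mean was 0.0634 ± 0.0345 (SD over 5 nt).

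In bktRNA17 the loop is AAAU, nt 30 to 33, and its scores were 0.00769 at the first A, 0.111 at the second, 0.0637 at the third and 0.0524 at U. The first A stood apart from the other loop nucleotides, and 11 of the 55 nt outside the loop scored above it, 3 of them in predicted stems. The loop mean was 0.0587 ± 0.0424 (SD over 4 nt). Both profiles peak at nt 31 and step down over nt 32 and 33. These 3 nt averaged 0.0803 ± 0.0358 in bktRNA16 and 0.0757 ± 0.0310 in bktRNA17 (SD over 3 nt), and the gap between the RNAs is smaller than the spread within either.

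**Figure D1:**
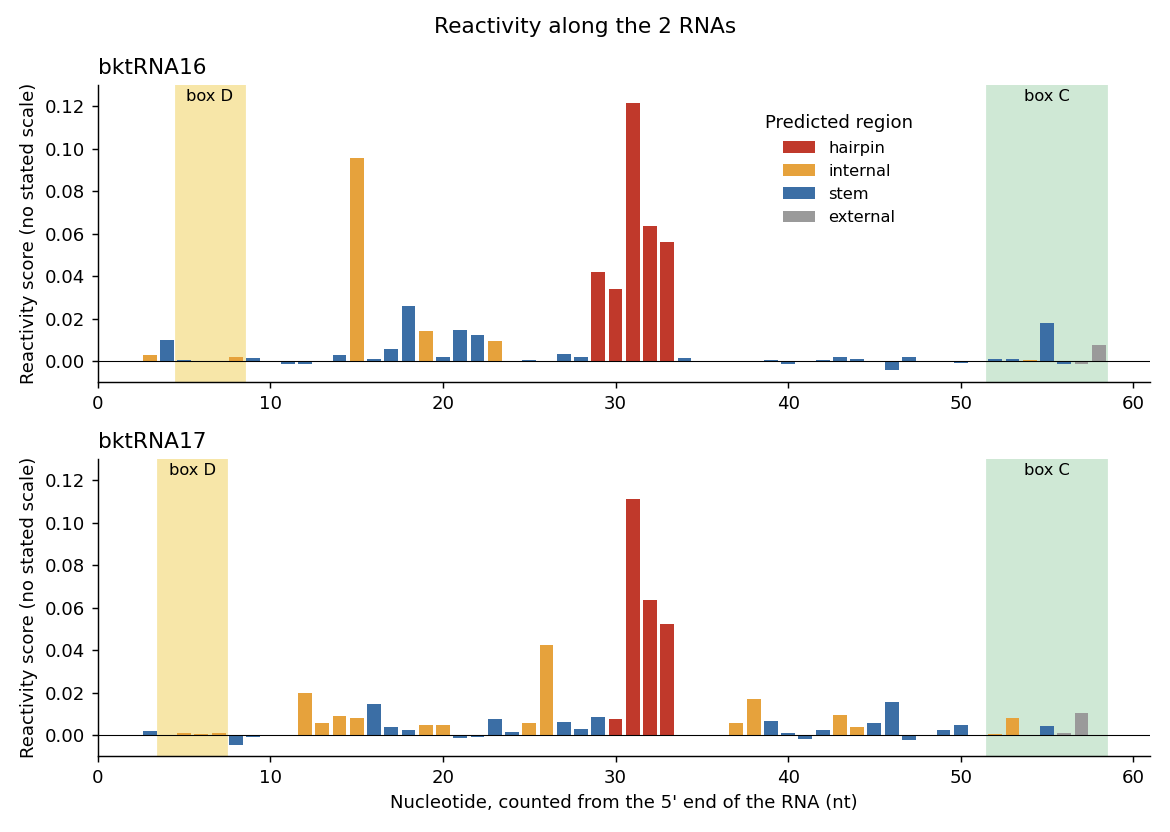
Reactivity score at each nucleotide of bktRNA16 (top) and bktRNA17 (bottom), 5' to 3', with bars coloured by predicted region and the boxes shaded. Both RNAs peak at nt 31 in the loop (0.121 and 0.111), bktRNA16 has another tall bar at nt 15 (0.0955), and its side between loop and box C lies near 0.

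Loops of other RNAs just outside the rule were those of bktRNA4, UGCCAU with a mean of 0.0448 and UUACU with 0.0401, whose highest nucleotides reached 0.137 and 0.113. Their single peaks were as high as those of the chosen pair, and their lowest nucleotides scored 0.0172 and 0.00870. Over the other 12 RNAs the mean of all hairpin-loop nucleotides ran from 0.00103 to 0.0427, with a median of 0.0143.

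The loop held most of the signal in bktRNA16 and about as much as all other nucleotides in bktRNA17. Of the sum of scores above 0, which was 0.558 in bktRNA16 and 0.484 in bktRNA17, the loop carried 56.8% on 8.33% of the nucleotides in bktRNA16 and 48.5% on 6.78% in bktRNA17. In the other RNAs this share ran from 2.45% to 56.3%, with a median of 22%, where loops held a median of 10.5% of the nucleotides. In bktRNA4 it was 40.3% on 8.66%. The RNA at 56.3%, bktRNA43, has 24.7% of its nucleotides in hairpin loops. A single nucleotide, nt 31, carried 21.8% of the signal of bktRNA16 and 22.9% of that of bktRNA17. With it left out, the rest of the loop carried 44.8% and 33.2% of what remained.

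**Figure D2:**
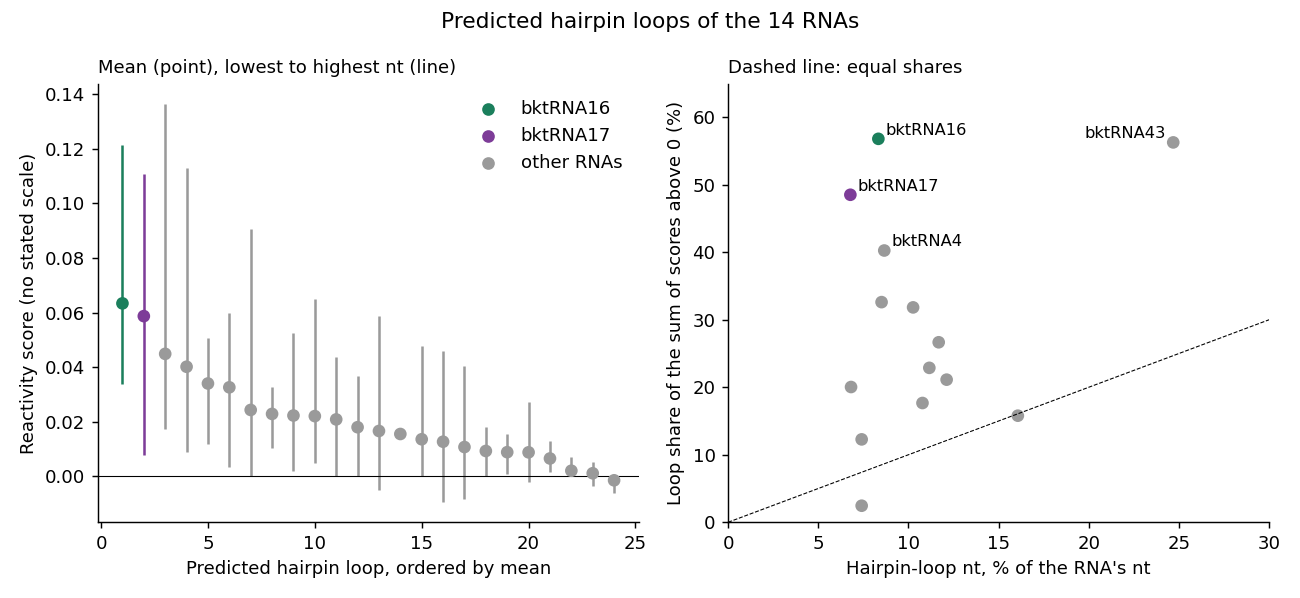
Left, the 24 predicted hairpin loops of the file in order of mean score, with a point for the mean and a line from the lowest to the highest nucleotide. Right, the loop share of the summed scores above 0 against the loop share of nucleotides for each of the 14 RNAs. Here bktRNA16 (56.8%) and bktRNA17 (48.5%) lie far above the dashed line of equal shares. Most other RNAs also lie above it, bktRNA4 (40.3%) among them, while bktRNA21 (15.8%) and bktRNA385 (2.45%) lie below.

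Outside the loop the RNAs differed in how the signal was spread. In bktRNA16 a single bulged nucleotide held 39.7% of the positive signal outside the loop. All predicted stem nucleotides together, paired box nucleotides among them, held 45.2%. The unpaired G at nt 15 scored 0.0955, the second highest of the RNA, between the U at nt 14 (0.00267) and the C at nt 16 (0.000728). It carried 17.1% of the positive signal of the whole RNA, and with nt 31, 32 and 33 it makes up the 4 nt of the RNA above 0.05, a bound taken after the scores were known. The other single-nucleotide bulges were lower, with 0.0143 at the A of nt 19 and 0.00957 at the U of nt 23.

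In bktRNA17 no nucleotide outside the loop passed 0.05. The highest was the U at nt 26, at 0.0423, in an internal loop of 2 nt on each side. Its neighbour, the G at nt 25, scored 0.00570, and the C and G facing them at nt 37 and 38 scored 0.00557 and 0.0168. The unpaired nt 11 to 15 averaged 0.00833 ± 0.00747 (SD over 5 nt), with the A at nt 12 highest at 0.0200. The internal loop of nt 19, 20, 43 and 44 was lower, from 0.00392 to 0.00943.

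Over all nucleotides in bulges and internal loops the mean was 0.0177 ± 0.0347 (SD over 7 nt) in bktRNA16 and 0.00765 ± 0.0100 (SD over 19 nt) in bktRNA17. Their share of the positive signal was 22.3% and 30.2%. The median was 0.00266 in bktRNA16 and 0.00550 in bktRNA17, so in this class the order of the RNAs depends on the measure. The class includes nucleotides in and beside the boxes. Between box D and the loop, the unpaired nucleotides had medians of 0.0143 (3 nt) in bktRNA16 and 0.00570 (9 nt) in bktRNA17. Between the loop and box C bktRNA16 had no unpaired nucleotide, and those of bktRNA17 had a median of 0.00557 (5 nt).

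Predicted stems were low in both, at 0.00215 ± 0.00564 (SD over 44 nt) in bktRNA16 and 0.00262 ± 0.00458 (SD over 30 nt) in bktRNA17. These fell inside the range of the other 12 RNAs, 0.000989 to 0.00859. Box nucleotides and their neighbours that pair in the unconstrained fold are counted as stem here. With the boxes held unpaired the stem means were 0.00194 in bktRNA16 and 0.00279 in bktRNA17. The loop exceeded the stem by 0.0612 in bktRNA16 and 0.0561 in bktRNA17, where the largest gap in the other RNAs was 0.0408, in bktRNA4. The order of loop means is what the rule used, and a wide gap to low stems comes with it.

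The arms of the hairpin were unlike each other in bktRNA16. The 20 nt between box D and the loop averaged 0.00929 ± 0.0215, and the 18 nt between the loop and box C averaged -1.5e-05 ± 0.00141, with scores from -0.00437 to 0.00199. All 18 of the latter are paired in the prediction, and all single-nucleotide bulges of the hairpin lie on the 5' side. Without the G at nt 15 the 5' side averaged 0.00475 ± 0.00739 (SD over 19 nt). Counting stem nucleotides only, it averaged 0.00390 ± 0.00731 (SD over 17 nt).

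The stem nucleotides that stood out on that side were nt 18, 21 and 22. The A at nt 18, paired in prediction with the U at nt 42, scored 0.0261 against 0.000313 at its partner. The U at nt 21 and the G at nt 22 form the only G-U wobble pairs of the hairpin, and scored 0.0147 and 0.0124 against -0.00120 and 0.000468 at the G of nt 40 and the U of nt 39. The 5 pairs next to the loop were quiet on both strands, with scores from -0.000575 to 0.00312, although the loop they close is the most reactive of the file. The predicted probability of being unpaired was 0.575 at nt 18, 0.129 at nt 21 and 0.337 at nt 22.

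In bktRNA17 the arms were closer. The 5' side averaged 0.00629 ± 0.00978 (SD over 22 nt) and the 3' side 0.00383 ± 0.00545 (SD over 18 nt), and without the U at nt 26 the 5' side averaged 0.00458 ± 0.00570. Of 13 pairs outside the boxes the 5' partner was higher in 7 and the 3' partner in 6. In bktRNA16 it was the 5' partner in 12 of 17 and the 3' partner in 5. Several of these pairs had nearly equal partners, so the counts alone say little about the arms. Examples are nt 26 and 36 of bktRNA16 (-0.00039 and -0.000416) and nt 10 and 48 of bktRNA17 (-0.000543 and -0.000634). Paired nucleotides of bktRNA17 with the highest scores were the A at nt 46 and the G at nt 16. They scored 0.0153 (partner at nt 17 0.00383) and 0.0147 (partner at nt 47 -0.00219). Both belong to neighbouring pairs at the edge of the unpaired nt 11 to 15. Which nucleotide pairs at this edge is uncertain. The predicted probability of being unpaired was 0.343 at nt 16, 0.0907 at nt 46 and 0.462 at nt 11, which scored -0.000546. Next to the loop, the 5' partners scored 0.00849, 0.00302 and 0.00636 and the 3' partners 0, 0.000221 and -0.000325.

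**Figure D3:**
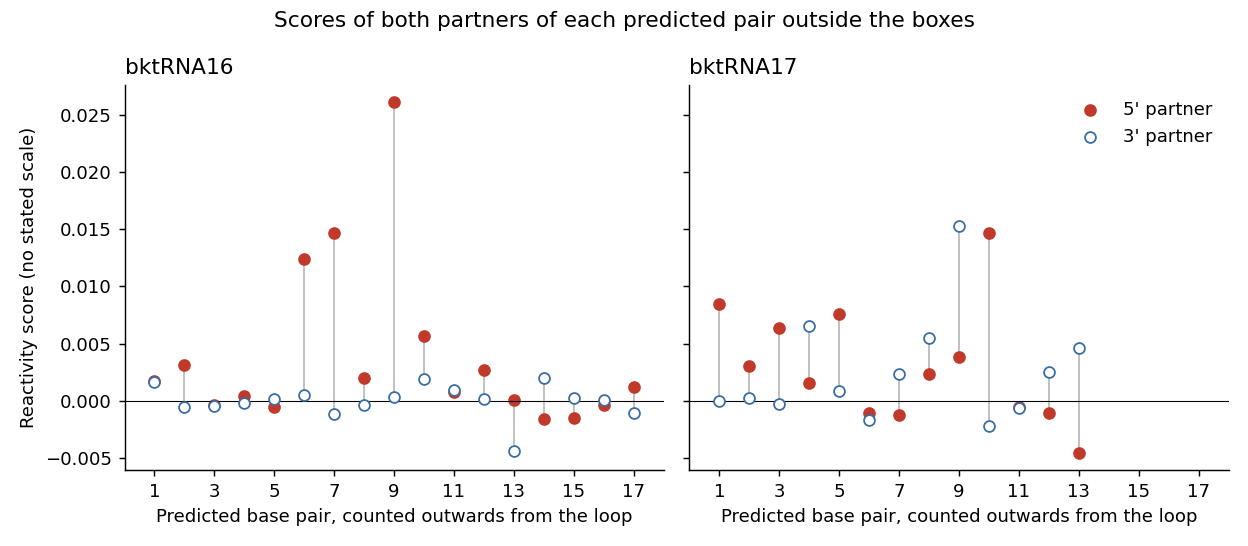
Scores of the 5' partner (filled) and the 3' partner (open) of each predicted base pair outside the boxes, counted outwards from the loop. In bktRNA16 the 5' partners of pairs 6, 7 and 9 rise to 0.0124, 0.0147 and 0.0261 while their 3' partners lie near 0, and in bktRNA17 high partners occur on both sides.

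The scores were higher where the predicted chance of being unpaired was higher, computed over all structures and not only the best one. Without the first 2 and last 2 nt, Spearman's rho was 0.513 in bktRNA16 (56 nt, Pearson's r 0.557) and 0.503 in bktRNA17 (55 nt, r 0.383). The high loop scores that chose these RNAs enter both values, so a high correlation follows in part from the rule and is no support for the fold. They are correlations across nucleotides that share their libraries, their neighbours and the base composition of the RNA, and neighbours are not independent. High probability alone did not bring a high score: the A at nt 30 of bktRNA17 had a probability of 1.0, as did the loop nucleotides behind it, and scored 0.00769.

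**Figure D4:**
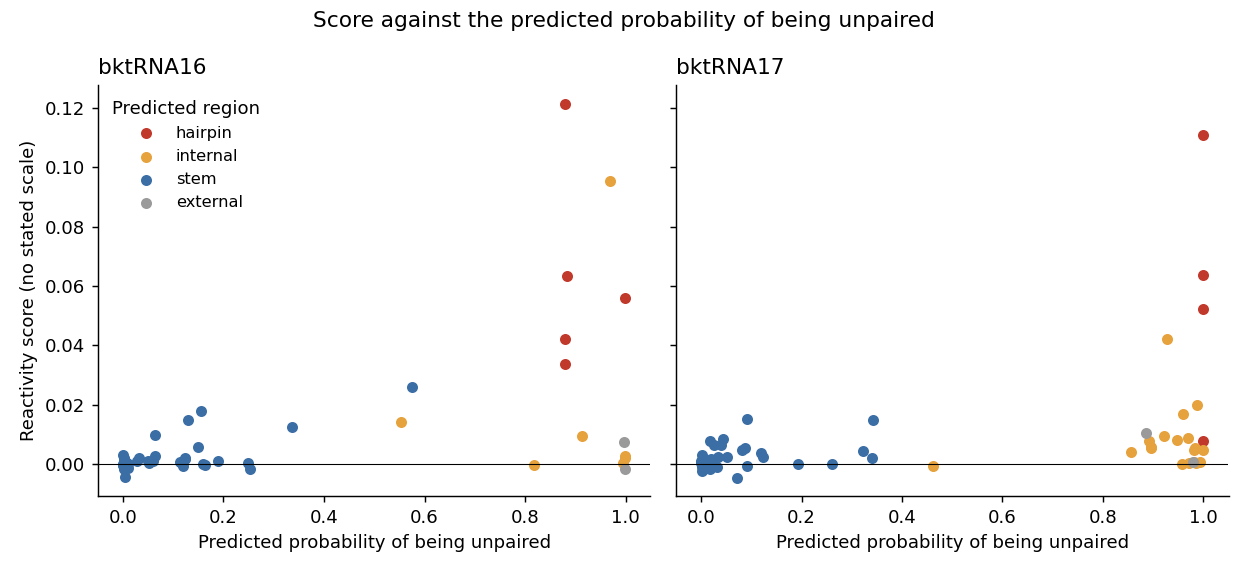
Reactivity score against the predicted probability of being unpaired for each nucleotide, without the first 2 and last 2 nt, coloured by predicted region. All scores above 0.05 lie at probabilities of 0.88 or more, and many nucleotides at such probabilities, box nucleotides among them, have scores near 0.

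By base, the highest mean fell on different letters in the 2 RNAs, while the highest median fell on A in both, at 0.00208 in bktRNA16 and 0.00566 in bktRNA17. In bktRNA17 the mean was highest at A, 0.0175 ± 0.0315 (SD over 14 nt), and lowest at G, 0.00295 ± 0.00599 (SD over 16 nt). In bktRNA16 it was highest at G, 0.0117 ± 0.0269 (SD over 20 nt), then at U, 0.0103 ± 0.0311 (SD over 15 nt), and lowest at C, 0.00264 ± 0.00981 (SD over 12 nt). In bktRNA16 the spread of each base exceeded the gaps between bases. In bktRNA17 the gaps from A to C and G lay within the spread of A. They exceeded the spread of G and that of C, 0.00356 ± 0.00363 (SD over 15 nt). The letters of the loops enter these means, since the loop of bktRNA16 holds 2 G and that of bktRNA17 holds 3 A, and so does the G at nt 15 of bktRNA16. Among stem nucleotides A was highest in both, at 0.00603 ± 0.00985 (SD over 9 nt) and 0.00458 ± 0.00591 (SD over 6 nt), within a spread wider than the mean.

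The boxes were quiet next to the loops. Box D, CUGA in both, scored 0.000357, -0.000282, -0.000285 and 0.00208 from C to A in bktRNA16 and 0, 0.000797, 0.000251 and 0.000801 in bktRNA17. The means were 0.000467 ± 0.00112 and 0.000462 ± 0.000402 (SD over 4 nt), and differ by less than either spread. Directly before box D the A at nt 4 of bktRNA16 scored 0.00996 and the U at nt 3 of bktRNA17 0.00191. Directly after it the G scored 0.00117 in bktRNA16 and -0.00455 in bktRNA17, the lowest score of that RNA.

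Box C lies at nt 52 to 58 in both RNAs and differs at 2 of its 7 positions. Counted from the 5' end of the box, with the base of bktRNA16 first, the changes are G1A, which keeps the consensus R, and A7U, which leaves it. bktRNA16 thus has the exact GUGAUGA, as 12 of the 14 RNAs have an exact box C, and bktRNA17 has the variant AUGAUGU. The means were 0.00350 ± 0.00698 in bktRNA16 and 0.00343 ± 0.00430 in bktRNA17 (SD over 7 nt), and differ by far less than the spread over positions. In the 12 other RNAs they ran from -0.000155 to 0.00301. In 8 of the 14 RNAs, bktRNA17 among them, box C reaches into the last 2 nt, which are listed at 0 and lower such a mean. Without those positions bktRNA1 had 0.00351, next to 0.00350 in bktRNA16 and 0.00400 in bktRNA17.

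Position by position the profiles of the box were not alike. In bktRNA16 the high positions were the A of position 4 (0.0178) and the A of position 7 (0.00733). In bktRNA17 they were the G of position 6 (0.0105) and the U of position 2 (0.00806). Position 4 scored 0.00423 in bktRNA17, and positions 2 and 6 scored 0.00115 and -0.00153 in bktRNA16. Position 4 of bktRNA16 stood above all 12 other RNAs, whose highest there was 0.00832. So did positions 2 and 6 of bktRNA17, where the highest of the others were 0.00609 and 0.0103. Of these 12 RNAs, 7 were listed at 0 at position 4, 6 at position 2 and 4 at position 6. Positions 5 and 6 of bktRNA16 stood above only 1 of the 12, and position 3 of bktRNA17 above 2. Position 1, where the RNAs differ within the consensus, was low in both, at 0.00105 and 0.000480, as were position 3 (0.000352 and 0) and position 5 (-0.00163 and 0.000750).

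The variant base itself is listed at 0, and whether it was measured is unknown. It is nt 58 of 59 in bktRNA17, and the zeros of the first 2 and last 2 nt recur in all 14 RNAs. In bktRNA16 the same position is also nt 58, but of 60, and lies just before those 2 nt. The 0.00733 of the exact box and the 0 of the variant are therefore not compared. Without position 7 the box C means were 0.00287 in bktRNA16 and 0.00400 in bktRNA17, so the order of the RNAs turns, again by less than the spread over positions. Of the other 12 RNAs, 7 also have position 7 in the last 2 nt. The remaining 5 have it further inside, and 4 of these are listed at 0 there too.

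**Figure D5:**
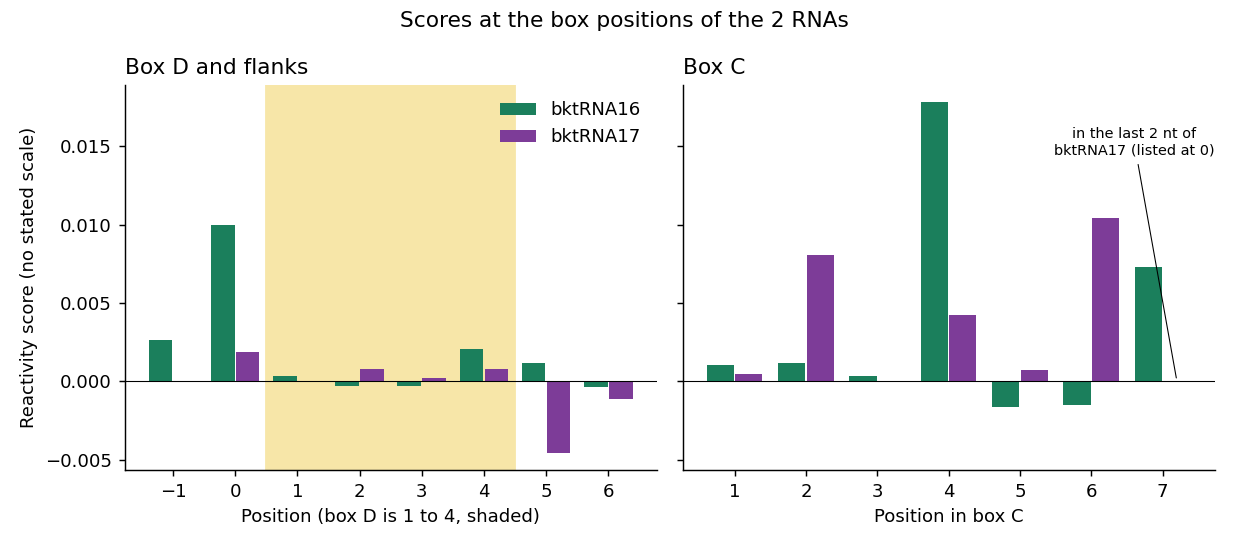
Scores at box D (positions 1 to 4, shaded, with flanks) and at the 7 positions of box C in bktRNA16 and bktRNA17. Box D reaches at most 0.00208 in both, position 4 of box C reaches 0.0178 in bktRNA16, position 6 reaches 0.0105 in bktRNA17, and the last box C position of bktRNA17 is listed at 0. In the left panel, position -1 of bktRNA17 is its nt 2, which is also listed at 0.

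The G and A of both boxes that form the tandem pairs of a kink-turn averaged 0.00499 ± 0.00861 in bktRNA16 and 0.00132 ± 0.00197 in bktRNA17 (SD over 4 nt). In bktRNA16 the A of box C position 4 makes up most of that mean, and the other 3 lie between -0.000285 and 0.00208. The 3 nt that precede the G of box C averaged 0.000752 ± 0.000605 in bktRNA16 and 0.00285 ± 0.00452 in bktRNA17. The U of box C position 2 scored 0.00806 in bktRNA17, and in bktRNA16 all 3 lay between 5.5e-05 and 0.00115. Both boxes together carried 5.40% of the positive signal on 18.3% of the nucleotides in bktRNA16 and 5.34% on 18.6% in bktRNA17.

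The only yardstick for small scores is the profile itself. The most negative score was -0.00437 in bktRNA16 (the G at nt 46) and -0.00455 in bktRNA17 (the G at nt 8), and 15 of 60 nt and 25 of 59 nt scored above the size of it. All loop nucleotides passed this bound in both RNAs, no box D nucleotide did, and 2 box C nucleotides did in each. On the 3' side between loop and box C, 0 of 18 nt passed it in bktRNA16 and 7 of 18 in bktRNA17. Scores of exactly 0 numbered 4 in bktRNA16, all at the ends, and 8 in bktRNA17, where the other 4 were at nt 4, 34, 51 and 54.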

How the data were processed

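The authors deposited 1 reactivity score per nucleotide, with base, strand and position, for the whole series; per the file headers the column carries no scale. How DMSO was used, how libraries were combined and any depth minimum are not given in the sources used here. The tools named, with no roles, are cutadapt 3.4 and STAR with build hg38, per the submitters' processing notes. Scores were read as deposited. Structures, their ensemble and pairing probabilities came from ViennaRNA 2.7.2 with default parameters. The best match to RUGAUGA was taken as box C in the last 20 nt (at most 2 mismatches), box D to CUGA in the first 20 nt (at most 1). The UGA directly after R in box C and the GA of box D had to match exactly, so the search could not find variants there. Gene spans and strands are from RefSeq (GRCh38.p14). Scripts used Python 3.11.15, NumPy 2.4.6, SciPy 1.17.1 and Biopython 1.88, with structure parsing checked on simulated data. The planned comparison of NAI-N3 with DMSO needs values per library and was not run, so no p-value is given. The RNAs, boxes and measures were chosen with earlier results of these data known. The RNAs named are both chosen RNAs and those that frame them.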

Additional observations from a re-analysis of the deposited data

How the results depend on the processing

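No paired analysis was possible because the deposited profile pools the series and carries no library or replicate number. No replicate could be left out either. A mean was taken as moved if it changed by more than its standard error over nucleotides, and a share if by more than 1.5 times. Of 72 alternatives 66 stayed within these bounds, 6 moved and none changed sign. Part of the 66 could not differ from the main value, so the count overstates what was varied. The loops hold no zero, negative or end score, so leaving out zeros or ends could not change their means or shares. The standard error is wide over few and uneven nucleotides, and 5 of the 66 changed by more than 1.5 times. With the closing pair added, the loop mean of bktRNA16 was 0.0457. With medians, the stem value was 0.000262 in bktRNA16 and 0.00173 in bktRNA17, and the box C value of bktRNA17 was 0.000750. With medians, box C of bktRNA16 was 0.00105 and box D 3.75e-05. The difference of the 5' side minus the 3' side in bktRNA16, 0.00930, was 0.00173 with medians, 0.00392 over stem nucleotides only and 0.00476 without the highest nucleotide. In bktRNA17, 0.00247 became 0.000482 over stem nucleotides only and 0.000753 without the highest nucleotide. Loop means and shares were the same in the centroid structure and with the boxes held unpaired. The side differences, the box C means of other RNAs without the last 2 nt and the omission of the highest loop nucleotide were chosen after seeing the data. The limits set by depth were not measured, since depth was unknown.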
